A study of Mus musculus with 12 samples.

Results

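Tcf21, Wt1, Tbx18, Upk3b, Upk1b, Msln, Aldh1a2, Lrrn4, Krt19 and Bnc1 mark the epicardium, the sheet of cells that covers the heart, and the mesothelium, the related sheet that lines the chest and abdominal cavities and wraps the organs in them. These 10 genes were taken by symbol from the platform annotation, out of 19938 genes measured, with 1 probe set each, and none was lost to a filter. Vessels were taken from wild-type C57BL/6 mice aged 8 weeks that had no treatment, and their total RNA was measured on 12 Affymetrix arrays. The groups, of 3 arrays each, were coronary artery, ascending aorta, descending aorta and superior mesenteric artery, which feeds most of the gut. The labels call the 3 arrays of a vessel biological replicates but do not say whether each was 1 animal or a pool, so p-values reflect only how far these samples spread, which may be technical. The study asked whether vessels of different embryonic origin have expression profiles of their own.

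Epicardium forms when mesothelial cells of the proepicardium spread over the embryonic heart. Some of its cells then lose their epithelial character, move into the heart wall and give rise to fibroblasts and to the smooth muscle of the coronary vessels. Wt1, Tbx18 and Tcf21 are transcription factors of this lineage, and Aldh1a2 makes retinoic acid in it, whereas mesothelin (Msln), uroplakins, Lrrn4 and keratin 19 are surface and structural products of the mature sheet. In the adult, the mesothelial sheet also lies close to the large vessels as pleura, pericardium and peritoneum.

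Values are log2 expression as deposited, levels are means ± SD over 3 arrays, and differences are log2 differences ± SE from limma, a linear model fitted to all 12 arrays. A gene was called where its Benjamini-Hochberg adjusted p, over all 19938 genes, was under 0.05. Array medians over all genes lay between 4.04 and 4.18, precision is limited by the number of arrays, and detection above background is not known for low values. In tissue RNA, fewer cells of a type and less RNA per cell cannot be told apart.

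The labelled vessels held other tissues too. The 10 cardiomyocyte markers averaged 10.81 ± 0.13 in coronary artery, 4.15 ± 0.071 in ascending aorta, 4.72 ± 0.95 in descending aorta and 5.06 ± 0.54 in superior mesenteric artery. Myh11, the smooth muscle myosin that defines the muscle of an artery wall, was at 4.92 ± 0.43 in coronary artery, against 9.02 ± 1.16 in ascending aorta, 7.99 ± 0.39 in descending aorta and 8.41 ± 2.17 in superior mesenteric artery. Ascending aorta replicate 1 had a mean of 8.58 over 4 B cell markers, against 4.34 and 4.69 in replicates 2 and 3, and of 6.19 over 6 fibroblast markers, against 8.23 and 8.08. Superior mesenteric artery replicates 2 and 3 were also high in B cell markers (7.86 and 7.50, with 5.44 in replicate 1), and its replicate 3 averaged 9.39 over 5 pancreatic acinar markers. In its replicate 1, Tnnt2 was at 10.34, Pln at 9.89 and Actc1 at 9.39. The rest of the 10 cardiomyocyte markers lay between 2.79 and 4.91 on that array, where the smooth muscle markers averaged 9.71. Atrial markers averaged 6.69 in descending aorta replicate 1 and 4.09 and 4.32 in replicates 2 and 3. Adipocyte markers averaged 6.92 in coronary artery and 8.59, 9.46 and 7.64 in ascending aorta, descending aorta and superior mesenteric artery, and brown adipocyte markers 4.21 in coronary artery and 8.06, 8.60 and 3.89 in the others. Endothelial markers averaged 6.88 in coronary artery and between 5.89 and 6.63 in the others, and T cell markers lay between 3.69 and 7.88 on single arrays, highest in ascending aorta replicate 1.

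Upk3b, Lrrn4 and Tcf21 are the members whose promoters are shown. They are those with a match to a motif searched, and the other promoters found, those of Aldh1a2, Bnc1 and Tbx18, held none. A link between motifs and levels was not tested. RefSeq promoters, 250 bases before to 50 after the annotated start, matched 6 of the 10 members by symbol (GRCm38.p6). Capitals mark matches, on either strand, to the motifs searched. These were GGAATG, which TEAD factors bind, and AGATAA, a motif of the GATA family. The E-box motifs were CAGCTG together with CATATG. The motif of WT1 and EGR proteins was GCGGGGGCG. The Upk3b promoter lies at chr5:136038246-136038545 on the plus strand, that of Lrrn4 at chr2:132880813-132881112 on the minus strand and that of Tcf21 at chr10:22820094-22820393 on the minus strand.
Upk3b: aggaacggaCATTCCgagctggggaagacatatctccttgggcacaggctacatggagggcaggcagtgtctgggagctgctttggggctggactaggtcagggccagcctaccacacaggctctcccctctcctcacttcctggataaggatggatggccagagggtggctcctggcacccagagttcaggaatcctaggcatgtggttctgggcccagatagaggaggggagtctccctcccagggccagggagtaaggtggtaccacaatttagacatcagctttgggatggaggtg
Lrrn4: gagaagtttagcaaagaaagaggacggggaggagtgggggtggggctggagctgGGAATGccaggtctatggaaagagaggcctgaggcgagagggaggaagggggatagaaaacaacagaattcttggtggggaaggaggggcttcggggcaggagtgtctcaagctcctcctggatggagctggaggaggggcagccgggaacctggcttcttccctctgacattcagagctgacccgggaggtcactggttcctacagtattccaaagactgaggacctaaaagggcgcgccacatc
Tcf21: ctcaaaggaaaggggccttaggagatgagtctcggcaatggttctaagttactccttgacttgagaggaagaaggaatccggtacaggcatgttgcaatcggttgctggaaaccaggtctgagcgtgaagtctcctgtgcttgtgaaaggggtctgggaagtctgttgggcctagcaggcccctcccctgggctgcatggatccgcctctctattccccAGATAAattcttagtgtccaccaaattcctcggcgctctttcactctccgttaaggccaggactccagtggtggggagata
The TEAD motif was found in 2 of the 6 promoters, those of Upk3b and Lrrn4, and in 14.7% of 32851 promoters of the same length. The GATA motif was found in 1, that of Tcf21, and in 11.2% of all. Neither E-box nor the WT1 and EGR motif was in any of the 6, against 16.3% of all promoters for CAGCTG, 3.91% for CATATG and 2.91% for GCGGGGGCG. Each of the 3 promoters shown held a single match, so no motifs overlapped.

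All 10 members had their highest mean in coronary artery. Below it, 8 of them fell in the same order of means, with superior mesenteric artery next, then descending aorta, then ascending aorta; the exceptions were Tcf21 and Tbx18. The mean over the 10 members was 7.12, 7.51 and 6.80 on the coronary artery arrays, 3.62, 5.20 and 5.76 in ascending aorta, 5.06, 4.86 and 6.32 in descending aorta and 5.19, 6.53 and 6.54 in superior mesenteric artery. In the moderated F test over the 4 vessels, 2 of the 10 members, Tcf21 and Wt1, passed (limma adjusted p = 0.00166 and 0.018), beside 4.72% of all genes. Wt1 did not pass this test without coronary artery replicate 1 or 2 (limma adjusted p = 0.0675 and 0.0669), which left 1 member. Over all genes 637 and 608 then passed, against 942 with all arrays. Without ascending aorta replicate 3 there were 4 members, with Upk1b and Msln added (limma adjusted p = 0.00848 and 0.0482), and 1000 of all genes passed. For 5 members, Tcf21, Upk3b, Upk1b, Msln and Aldh1a2, the lowest coronary artery array was above the highest of the other 9, which held for 3.49% of all genes. The factor genes are described first, then the retinoic acid enzyme, then the products of the mesothelial sheet.

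**Figure D1:**
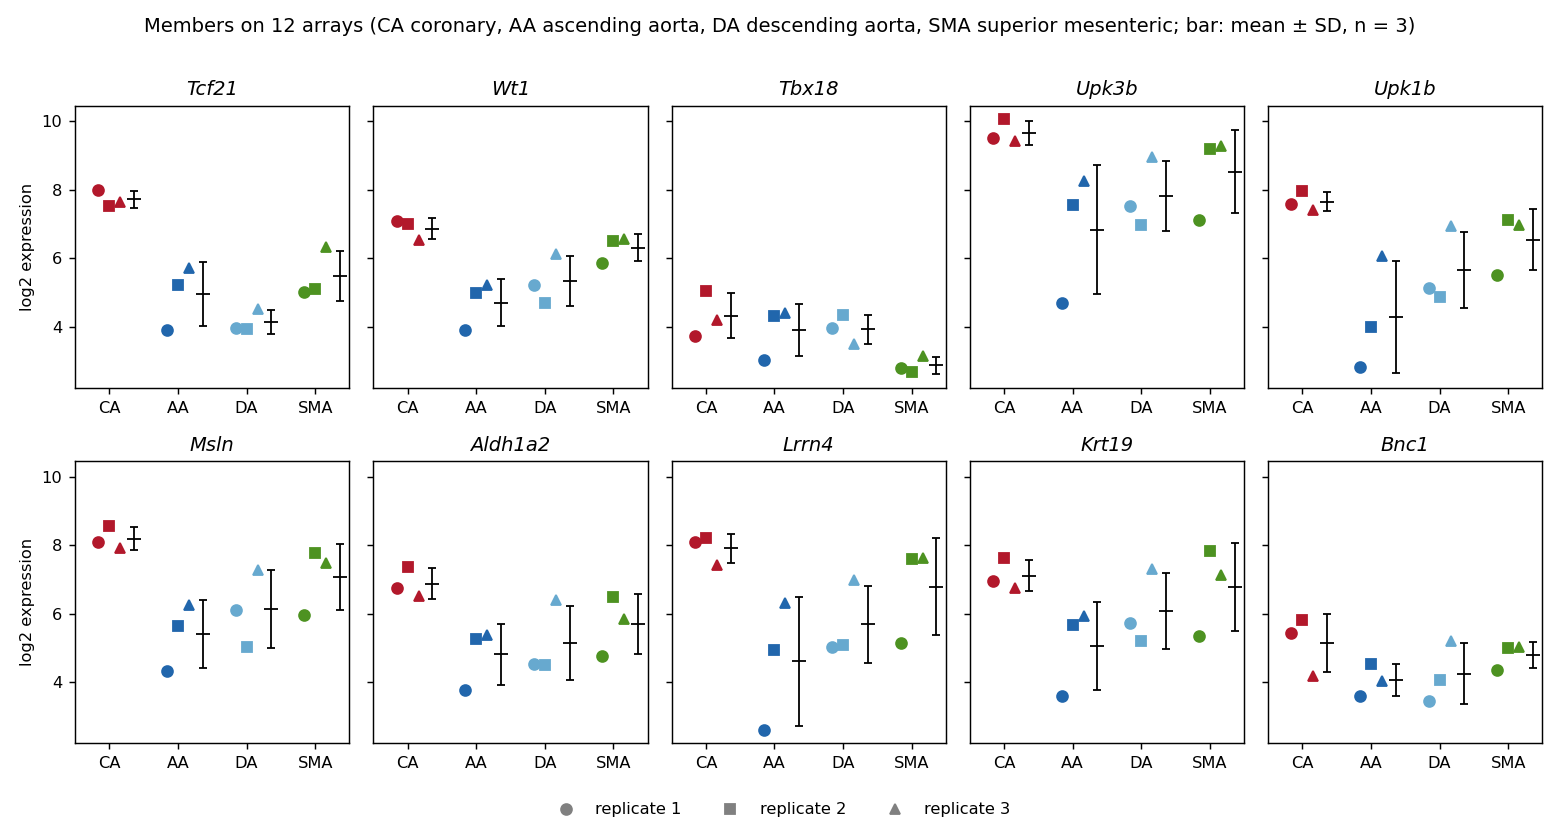
Log2 expression of the 10 members on each array (vertical axis), by vessel (CA coronary artery, AA ascending aorta, DA descending aorta, SMA superior mesenteric artery), with symbols for replicate numbers and bars for mean ± SD (n = 3). Coronary artery has the highest mean in all 10 panels, and ascending aorta replicate 1 is the lowest array of its vessel in all 10.

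Tcf21 encodes a basic helix-loop-helix factor of epicardium that is kept in cardiac fibroblasts. It stood at 7.99, 7.52 and 7.64 in coronary artery, 3.90, 5.21 and 5.72 in ascending aorta, 3.96, 3.92 and 4.53 in descending aorta and 5.01, 5.10 and 6.33 in superior mesenteric artery. The 3 coronary artery arrays were above all others, and Tcf21 was the only member called in coronary artery against each of the other vessels, as were 1.06% of all genes. It was 12-fold higher than in descending aorta (3.58 ± 0.44, limma adjusted p = 0.000446), 6.84-fold higher than in ascending aorta (2.77 ± 0.44, limma adjusted p = 0.00362) and 4.71-fold higher than in superior mesenteric artery (2.24 ± 0.44, limma adjusted p = 0.0133). Against superior mesenteric artery the call was lost when coronary artery replicate 1 or 3 was left out, or superior mesenteric artery replicate 2 (limma adjusted p between 0.0546 and 0.0612). Among the other vessels, Tcf21 was lowest in descending aorta, below superior mesenteric artery on every array, a difference of -1.34 ± 0.44 that did not pass (limma adjusted p = 0.144). The 6 fibroblast markers averaged 7.58 ± 0.14 in coronary artery, 7.50 ± 1.14 in ascending aorta, 7.93 ± 0.032 in descending aorta and 7.69 ± 0.22 in superior mesenteric artery. Of the 6, limma called 0 in any coronary artery comparison, with 2 at an unadjusted p under 0.05 against descending aorta and 0 against either of the others. Over all 19938 genes, 493, 627 and 645 were called against ascending aorta, descending aorta and superior mesenteric artery, so 0 of 6 is near that share. The part of fibroblasts in the level of Tcf21 was not tested.

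Wt1, a zinc finger factor of mesothelium and embryonic epicardium, had 7.08, 6.99 and 6.52 in coronary artery, 3.91, 4.97 and 5.22 in ascending aorta, 5.20, 4.69 and 6.11 in descending aorta and 5.86, 6.51 and 6.55 in superior mesenteric artery. The coronary artery arrays did not overlap those of either aortic segment, but the lowest lay just under the highest superior mesenteric artery array. Wt1 was 4.47-fold higher in coronary artery than in ascending aorta (2.16 ± 0.39, limma adjusted p = 0.0101), and this was lost without coronary artery replicate 1 or 2 (limma adjusted p = 0.0508 and 0.0514). Its difference from descending aorta, 1.53 ± 0.39, missed the threshold (limma adjusted p = 0.0583), and that from superior mesenteric artery was 0.56 ± 0.39 with a 95% interval of -0.29 to 1.41. Ascending aorta lay below superior mesenteric artery on every array, by -1.60 ± 0.39 (limma adjusted p = 0.179).

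Tbx18, a T-box factor of the proepicardium that is also known from smooth muscle and pericytes, did not follow the other members. It had 3.74, 5.03 and 4.20 in coronary artery, 3.03, 4.31 and 4.38 in ascending aorta, 3.95, 4.34 and 3.49 in descending aorta and 2.79, 2.66 and 3.14 in superior mesenteric artery. Coronary artery and the aortic segments overlapped, with differences of 0.42 ± 0.39 from ascending aorta (95% interval -0.44 to 1.27) and 0.39 ± 0.39 from descending aorta (95% interval -0.46 to 1.25). Superior mesenteric artery was the low vessel, where all 3 arrays were under those of coronary artery and descending aorta. The coronary artery difference from it was 1.46 ± 0.39 and did not pass (limma adjusted p = 0.0717). Tbx18 passed the F test without ascending aorta replicate 1 (limma adjusted p = 0.0185, against 0.163 with it), where 1825 of all genes passed, against 942 with it.

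Bnc1 encodes basonuclin, a zinc finger protein of keratinocytes, germ cells and mesothelium. Its values were 5.43, 5.81 and 4.19 in coronary artery, 3.60, 4.53 and 4.04 in ascending aorta, 3.45, 4.07 and 5.21 in descending aorta and 4.36, 5.001 and 5.03 in superior mesenteric artery. Each vessel overlapped coronary artery, in which replicate 3 was low, and the difference from ascending aorta was 1.09 ± 0.47 (limma adjusted p = 0.306).

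Aldh1a2 encodes the retinaldehyde dehydrogenase that makes retinoic acid in embryonic epicardium. It had 6.74, 7.37 and 6.51 in coronary artery, 3.78, 5.26 and 5.38 in ascending aorta, 4.52, 4.51 and 6.39 in descending aorta and 4.75, 6.48 and 5.85 in superior mesenteric artery. The 3 coronary artery arrays were above the other 9, though by only a small margin over superior mesenteric artery replicate 2 and descending aorta replicate 3. Coronary artery exceeded ascending aorta by 2.07 ± 0.58 (limma adjusted p = 0.0932), descending aorta by 1.73 ± 0.58 (limma adjusted p = 0.176) and superior mesenteric artery by 1.18 ± 0.58 (limma adjusted p = 0.371), none past the threshold.

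Upk3b and Upk1b encode uroplakins, membrane proteins best known from the bladder lining and also made by mesothelium. Upk3b had 9.51, 10.07 and 9.43 in coronary artery, 4.69, 7.56 and 8.26 in ascending aorta, 7.52, 6.97 and 8.97 in descending aorta and 7.13, 9.20 and 9.27 in superior mesenteric artery. Upk1b had 7.58, 7.96 and 7.42 in coronary artery, 2.81, 3.99 and 6.05 in ascending aorta, 5.14, 4.87 and 6.93 in descending aorta and 5.52, 7.13 and 6.98 in superior mesenteric artery. In both genes coronary artery was above every other array while the other vessels spread widely. Upk1b was 10.3-fold higher in coronary artery than in ascending aorta (3.37 ± 0.73, limma adjusted p = 0.0304). For Upk3b the same difference was 2.84 ± 0.83 and did not pass (limma adjusted p = 0.112). The uroplakins that build the bladder plaque with them, Upk1a, Upk2 and Upk3a, were called in 0 comparisons by limma and lay between 2.57 and 3.95, 3.70 and 4.78, and 2.94 and 3.57 over the 12 arrays. Of the 5 genes in the list that holds them, with the keratins Krt20 and Krt23, 1 had an unadjusted p under 0.05 against descending aorta, 1 against superior mesenteric artery and 0 against ascending aorta. Depending on the pair of vessels, between 3 and 645 of all 19938 genes were called.

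Msln encodes mesothelin, a surface glycoprotein by which mesothelium is commonly recognised. It had 8.10, 8.55 and 7.91 in coronary artery, 4.32, 5.64 and 6.26 in ascending aorta, 6.12, 5.02 and 7.28 in descending aorta and 5.97, 7.76 and 7.47 in superior mesenteric artery. Coronary artery was above all 9 other arrays, and Msln was 6.87-fold higher there than in ascending aorta (2.78 ± 0.61, limma adjusted p = 0.032). It exceeded descending aorta by 2.05 ± 0.61 (limma adjusted p = 0.117) and superior mesenteric artery by 1.12 ± 0.61 (95% interval -0.21 to 2.45). The calls of Upk1b and Msln against ascending aorta were the least stable. Without coronary artery replicate 1, 2 or 3, ascending aorta replicate 2 or descending aorta replicate 1, neither passed (limma adjusted p between 0.05 and 0.127), and Msln did not pass without ascending aorta replicate 1 (limma adjusted p = 0.0527). Upk1b also did not pass when only the 6 arrays of the pair were fitted (limma adjusted p = 0.0911). Without replicate 1 of ascending aorta, replicate 1 of descending aorta and replicate 3 of superior mesenteric artery together, Upk1b and Msln had limma adjusted p = 0.0747 and 0.0955.

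Lrrn4, a leucine-rich repeat membrane protein used as a mesothelial marker, had 8.10, 8.21 and 7.42 in coronary artery, 2.58, 4.92 and 6.32 in ascending aorta, 5.01, 5.07 and 6.99 in descending aorta and 5.15, 7.60 and 7.62 in superior mesenteric artery. Superior mesenteric artery replicates 2 and 3 reached into the coronary artery range, which lay above both aortic segments. The difference from ascending aorta, 3.30 ± 0.88, was large with a large error and did not pass (limma adjusted p = 0.0784). Krt19, a keratin of simple epithelia, had 6.96, 7.62 and 6.74 in coronary artery, 3.59, 5.66 and 5.93 in ascending aorta, 5.71, 5.19 and 7.32 in descending aorta and 5.34, 7.83 and 7.13 in superior mesenteric artery. Its highest array was superior mesenteric artery replicate 2, and coronary artery exceeded that vessel by 0.34 ± 0.73 (95% interval -1.24 to 1.92). Markers of glandular and covering epithelium were also measured. Epcam lay between 2.34 and 3.06 and Cdh1 between 2.51 and 3.09 over all 12 arrays, and the 6 epithelial markers averaged between 2.80 and 3.14. Of the 6, limma called 0 in any coronary artery comparison, with 1 at an unadjusted p under 0.05 against ascending aorta and 0 against either of the others. Over all 19938 genes, 493, 627 and 645 were called against ascending aorta, descending aorta and superior mesenteric artery.

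Counted over the members, coronary artery was higher for 4 of 10 against ascending aorta, Tcf21, Wt1, Upk1b and Msln, beside 1.87% of all genes, with a median difference of 2.47 over the members and -0.0042 over all genes. Against descending aorta 1 of 10 was higher, Tcf21, beside 1.53% of all genes, with a median difference of 1.79 over the members and -0.0069 over all genes. Against superior mesenteric artery 1 of 10 was higher, again Tcf21, beside 2.71% of all genes, with medians of 1.12 and -0.018. No member was called lower in these comparisons, beside 0.602%, 1.61% and 0.527% of all genes against ascending aorta, descending aorta and superior mesenteric artery. Against ascending aorta the count of 4 became 1 without coronary artery replicate 1 or 2 and 2 without coronary artery replicate 3, ascending aorta replicate 2 or descending aorta replicate 1, settings under which between 251 and 377 of all genes were called in either direction, against 493 with all arrays. Against descending aorta it became 3 when replicate 1 of ascending aorta or replicate 3 of descending aorta was left out, where 1056 and 457 of all genes were called, against 627 with all arrays. Against superior mesenteric artery it became 2 without ascending aorta replicate 1, where 1292 of all genes were called against 645 with all arrays, and 0 without coronary artery replicate 1 or 3 or superior mesenteric artery replicate 2. The coronary artery arrays did not overlap, and were higher, for 8 members against ascending aorta, 7 against descending aorta and 6 against superior mesenteric artery, beside 11%, 9.88% and 11.3% of all genes. The 3 comparisons share the coronary artery arrays. Cardiomyocyte markers stood higher in the same arrays by far larger differences, with medians of 7.07, 6.20 and 6.31 against ascending aorta, descending aorta and superior mesenteric artery, and their part in the members' differences was not tested.

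**Figure D2:**
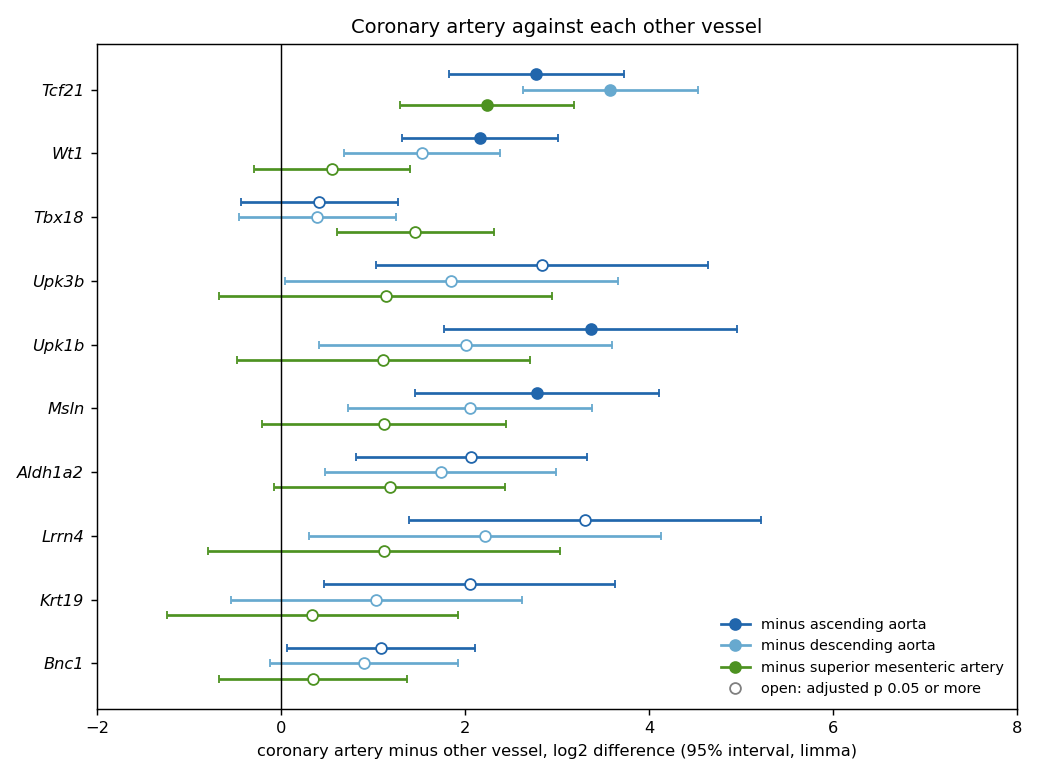
Log2 difference of coronary artery minus each other vessel for the 10 members, with 95% intervals from limma (filled points have an adjusted p under 0.05). For 8 members the difference from ascending aorta is the largest and that from superior mesenteric artery the smallest, the exceptions being Tcf21 and Tbx18, and Tcf21 is filled in all 3 comparisons.

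Between the other vessels the members overlapped on most arrays. For ascending against descending aorta, limma called 0 of 10 members (0 at an unadjusted p under 0.05), beside 0.015% of all genes (9.64% unadjusted), and their median difference was -0.68. No member was free of overlap there, beside 6.09% of all genes with ascending aorta above and 9.62% with it below. For ascending aorta against superior mesenteric artery, limma called 0 of 10 (6 at an unadjusted p under 0.05), beside 0.176% of all genes (7.22% unadjusted), with a median of -1.63 and with Tbx18 the only member of the opposite sign, at 1.04 ± 0.39. For descending aorta against superior mesenteric artery, limma called 0 of 10 (3 at an unadjusted p under 0.05), beside 3.2% of all genes (13.9% unadjusted), with a median of -0.80. Against superior mesenteric artery, ascending aorta was below without overlap for 1 member, Wt1, and above for 0, beside 4.62% and 4.73% of all genes. Descending aorta was above for 1, Tbx18, and below for 1, Tcf21, beside 12.5% and 10.4% of all genes. Without ascending aorta replicate 1, 1 member passed in ascending aorta and 1 in descending aorta against superior mesenteric artery, but over all genes the calls also grew, to 628 and 1361 of 19938, against 35 and 639 with that array.

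The members differed between arrays of the same vessel more than most genes did. Their median SD within a vessel was 0.39 in coronary artery, 0.96 in ascending aorta, 1.06 in descending aorta and 0.88 in superior mesenteric artery, where the median over all genes was 0.23, 0.27, 0.21 and 0.24. The 8 members other than Tcf21 and Tbx18, a split made after their values were seen, went up and down together. In ascending aorta replicate 1 and superior mesenteric artery replicate 1 all 8 were the lowest of their vessel, in descending aorta replicate 3 all 8 were the highest, and in coronary artery replicate 3 all 8 were the lowest. The median deviation of the 8 from their vessel means was -1.28 in ascending aorta replicate 1, 1.20 in descending aorta replicate 3, -1.06 in superior mesenteric artery replicate 1 and -0.35 in coronary artery replicate 3. Within ascending aorta, Lrrn4 spanned 3.73 log2 units and Upk3b 3.57, a 13.3-fold and an 11.9-fold range between arrays of 1 label.

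**Figure D3:**
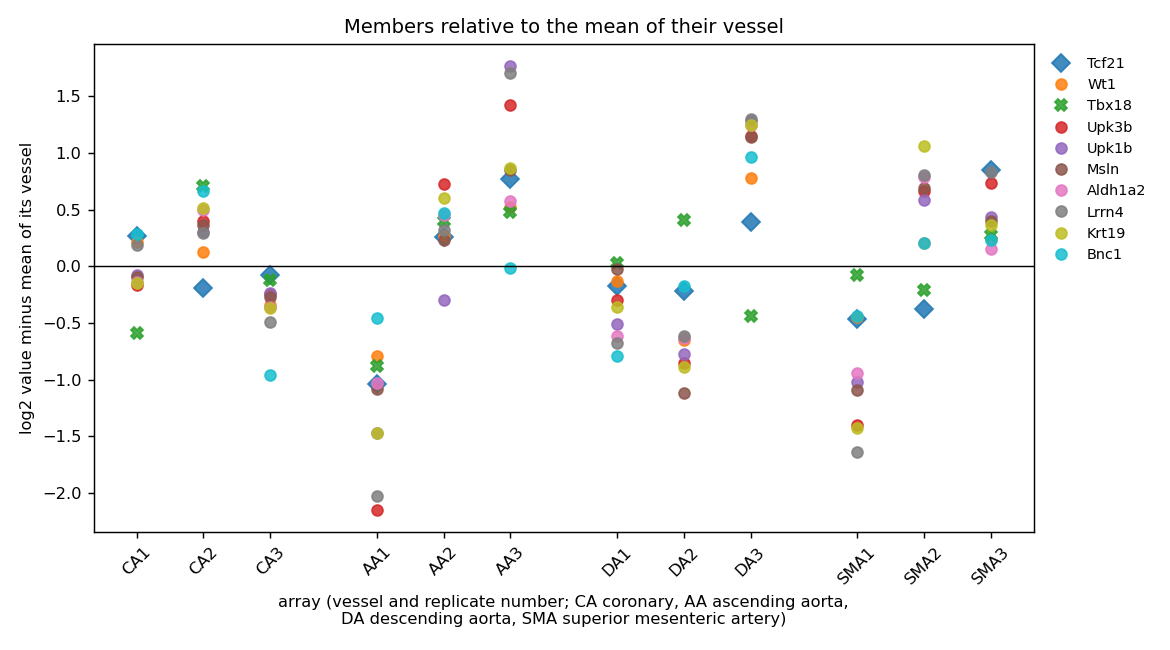
Log2 value of each member minus the mean of its vessel (vertical axis) on each of the 12 arrays, with diamonds for Tcf21, crosses for Tbx18 and circles for the other 8. All 10 members lie below 0 on AA1 and SMA1, and 9 lie above 0 on DA3, where Tbx18 lies below 0.

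As a description over arrays that share vessel and hybridisation, the 28 pairs among these 8 members had Pearson correlations between 0.74 and 0.98 over the 12 arrays, with a median of 0.94. With each vessel's mean taken off, the median was 0.92 and the range 0.56 to 0.98. Pairs with Bnc1 were the lowest of these, between 0.56 and 0.79. Tcf21 correlated with the 8 at between 0.43 and 0.82 after the vessel means were taken off, with a median of 0.71, and Tbx18 at a median of 0.28. Other transcripts also moved on these arrays. In ascending aorta replicate 1 the B cell markers were high and the fibroblast markers low, as given above, and the smooth muscle markers averaged 6.90, against 9.02 and 9.09 in replicates 2 and 3. In superior mesenteric artery replicate 1, where the members were low, smooth muscle averaged 9.71 against 6.44 and 7.12 in replicates 2 and 3, and B cell markers were the lowest of the vessel. In descending aorta replicate 3 smooth muscle was at 7.77 and fibroblast markers at 7.97, close to replicates 1 and 2 (7.56 and 7.97 for smooth muscle, 7.90 and 7.94 for fibroblasts), and B cell markers at 5.73, against 5.34 and 3.89. The part of these tissues in the members' levels was not tested.

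**Figure D4:**
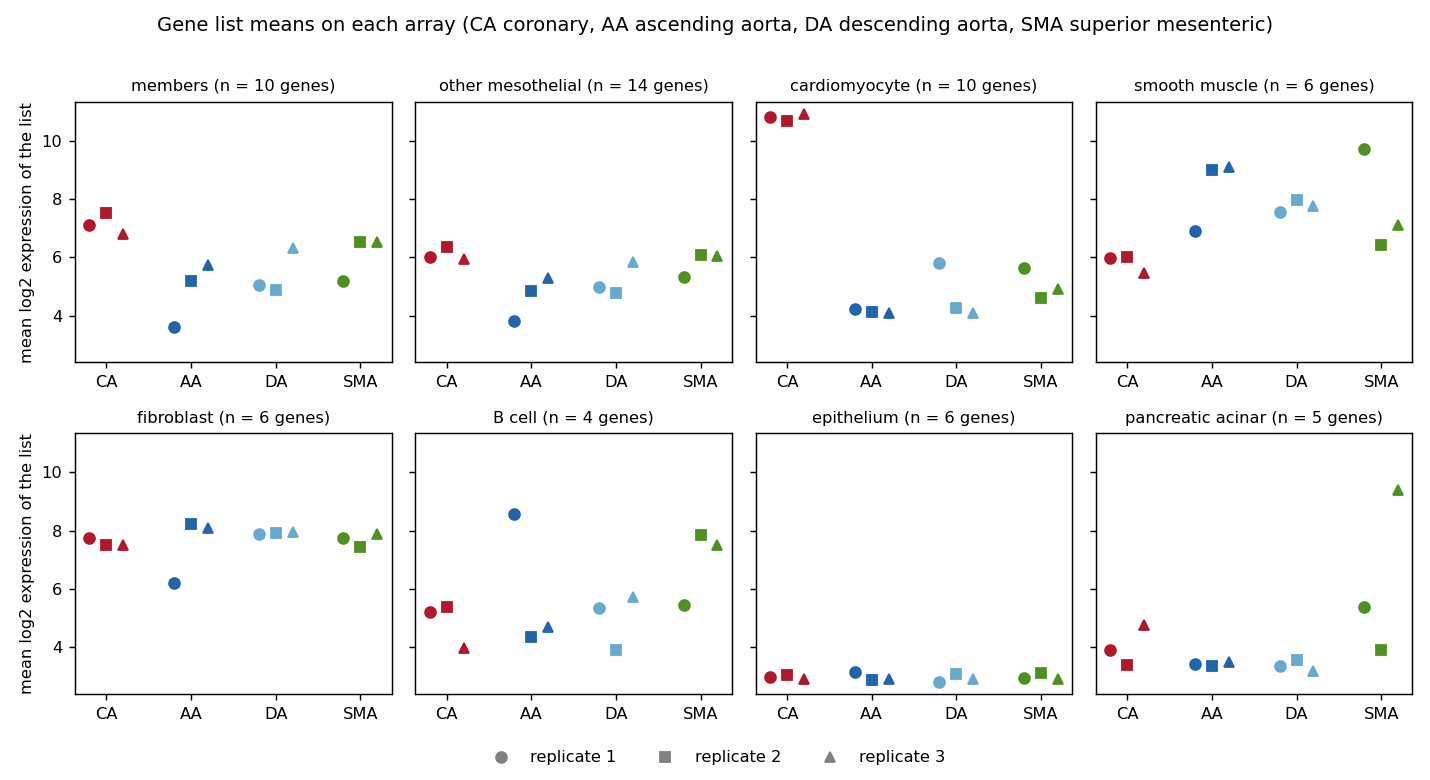
Mean log2 expression on each array of the 10 members and of 7 other gene lists (panel titles give the number of genes averaged), by vessel and replicate number. Cardiomyocyte markers are between 10.68 and 10.94 in coronary artery and at most 5.82 elsewhere, and epithelial markers stay between 2.80 and 3.14 on all 12 arrays.

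A further 14 mesothelial genes were measured. Their mean was 6.10 ± 0.21 in coronary artery, 4.65 ± 0.76 in ascending aorta, 5.21 ± 0.56 in descending aorta and 5.82 ± 0.43 in superior mesenteric artery. Not all of the 14 were highest in coronary artery. Krt8, Dmkn and Pdpn had their highest mean in superior mesenteric artery (6.84, 4.82 and 7.48, against 6.62, 4.01 and 7.40 in coronary artery). Anxa8 and Calb2 had it in descending aorta (4.14 and 2.333, against 3.86 and 2.330 in coronary artery). Itln1 had it in ascending aorta (2.51, against 2.49 in coronary artery). Against ascending aorta 2 of the 14 were higher in coronary artery, beside 1.87% of all genes. These were Gpm6a, a neuronal membrane glycoprotein also found in mesothelium, by 2.58 ± 0.58, and Muc16, the mucin that binds mesothelin, by 2.75 ± 0.63 (limma adjusted p = 0.037 and 0.0398). Against descending aorta 2 were higher, beside 1.53% of all genes. These were the keratins Krt7 by 1.82 ± 0.44 and Krt8 by 1.42 ± 0.33 (limma adjusted p = 0.045 and 0.0379). Against superior mesenteric artery limma called 0, with 1 at an unadjusted p under 0.05, beside 2.71% of all genes called higher. The median difference was 0.22, with 10 of the 14 above 0. Krt8 was also lower in descending aorta than in superior mesenteric artery, by -1.63 ± 0.33 (limma adjusted p = 0.0184). These counts were unstable: they lay between 0 and 6 against ascending aorta and between 0 and 4 against descending aorta over the alternatives, with 0 against ascending aorta when any 1 coronary artery array, descending aorta replicate 1 or superior mesenteric artery replicate 3 was left out. Against descending aorta it was 0 with median centring and when replicate 2 or 3 of coronary artery, or replicate 1 or 2 of descending aorta, was left out. Under the settings that gave 0, between 251 and 422 of all genes were called against ascending aorta and between 324 and 560 against descending aorta. The values as deposited, with all arrays, gave 493 and 627. Calb2, the calretinin of human mesothelium, and Itln1, an intelectin, lay between 1.92 and 2.61 and between 2.11 and 2.96 over the 12 arrays.

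Of 9 other genes known from epicardium and its precursors, coronary artery was higher for 3 against ascending aorta, 3 against descending aorta and 2 against superior mesenteric artery. The shares of all genes were 1.87%, 1.53% and 2.71%. The median difference of the 9 was 0.54, 1.01 and 0.78, with 8, 7 and 6 of the 9 above 0. Not all of the 9 were highest in coronary artery. Itga4, Gata6 and Nr2f2 had their highest mean in superior mesenteric artery (6.31, 6.98 and 6.80, against 4.79, 6.96 and 6.29 in coronary artery). Leaving out 1 array moved the counts of the 9 to between 2 and 3, 2 and 5, and 2 and 4, with the highest against descending aorta and superior mesenteric artery (5 and 4) when replicate 1 of ascending aorta was dropped. In that setting 1056 and 1292 of all genes were called in either direction, against 627 and 645 with all arrays. The transcription factors Tbx5 and Gata4 passed in all 3 comparisons. Tbx5 averaged 5.80 ± 0.56 in coronary artery, 2.63 ± 0.34 in ascending aorta, 3.26 ± 0.27 in descending aorta and 2.76 ± 0.47 in superior mesenteric artery (limma adjusted p = 6.77e-05, 0.000492 and 9.9e-05 against the 3 others). Gata4 averaged 6.05 ± 0.23 in coronary artery and 4.36 ± 0.47, 4.21 ± 0.11 and 4.10 ± 0.24 in the others (limma adjusted p = 0.00143, 0.000705 and 0.000418). Gata5 was higher than in ascending aorta by 1.20 ± 0.25 and than in descending aorta by 1.007 ± 0.25 (limma adjusted p = 0.0223 and 0.0458). Tbx5 and Gata4 are expressed in heart muscle as well, and the cardiomyocyte markers were high in the same arrays. The mean of this list had SDs within a vessel between 0.068 and 0.24, where that of the 10 members had SDs between 0.36 and 1.11, a difference that was not tested.

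In the retinoic acid pathway, apart from Aldh1a2, 1 of 17 measured genes was higher in each coronary artery comparison, beside 1.87%, 1.53% and 2.71% of all genes. It was Rxrg, a retinoid X receptor known from striated muscle, which averaged 4.63 ± 0.35 in coronary artery, 3.16 ± 0.13 in ascending aorta, 3.50 ± 0.43 in descending aorta and 2.89 ± 0.23 in superior mesenteric artery (limma adjusted p = 0.00553, 0.0252 and 0.00136). Rxrg lost its call against descending aorta when replicate 2 or 3 of coronary artery or replicate 1 or 2 of descending aorta was left out. The list's count rose to 2 against ascending aorta without ascending aorta replicate 1 or 3 and to 3 against descending aorta without ascending aorta replicate 1, and array weights gave 4 and 3. Over all genes those removals gave 768 and 442 against ascending aorta and 1056 against descending aorta, and array weights gave 887 and 1095. With all arrays, unweighted, the counts over all genes were 493 and 627. The median difference of the 17 was 0.062, 0.023 and -0.079 against the 3 vessels. Of 6 transcription factors of epithelial-to-mesenchymal transition, limma called 0 in the coronary artery comparisons (0, 2 and 2 at an unadjusted p under 0.05 against ascending aorta, descending aorta and superior mesenteric artery). Of all 19938 genes 493, 627 and 645 were called there, so 0 of 6 is near that share. Snai2 and Twist1 were higher in descending aorta than in superior mesenteric artery, by 1.23 ± 0.23 and 1.96 ± 0.47 (limma adjusted p = 0.0118 and 0.0416). In that comparison 3.2% of all genes were called in either direction.

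Outside these lists, the genes whose pattern over the 12 arrays was most like the mean of the 10 members, among 3445 genes with an SD over the arrays of at least 0.5, were Slc39a8, Tmem98, Myrf, Rpp25, Kiz, Cdh11, Tspan8, Atpif1, Clic3 and Oasl2. Their Pearson correlations with that mean lay between 0.90 and 0.98, as a measure of likeness over 12 arrays that share vessel and hybridisation. Slc39a8, a zinc and manganese transporter, was the closest at 0.98, and at 0.97 with vessel means taken off. It averaged 6.74 in coronary artery, 4.98 in ascending aorta, 5.35 in descending aorta and 5.61 in superior mesenteric artery, which is the order of the 8 members. For Tcf21 alone the closest were Lynx1, Pkig, Atpif1, Dipk2a and Smyd1, with correlations between 0.91 and 0.93. Pkig, which encodes a protein kinase A inhibitor, fell to 0.23 once vessel means were taken off, and Lynx1 to 0.86. Smyd1, a methyltransferase of striated muscle, averaged 5.62 in coronary artery, 3.27 in ascending aorta, 3.22 in descending aorta and 3.32 in superior mesenteric artery.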

How the data were processed

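RNA from 4 vessels was measured on 12 arrays, 3 per vessel, from biotinylated cRNA made with 6 ug of total RNA per the labels' protocols. The authors deposited log2 values for 35556 probe sets; the submitters' processing notes name RMA and Partek 6.6, with no role or order, and the sources used here give no genome build. Of the probe sets, 21789 had 1 gene symbol in the platform annotation, 1621 several and 12146 none, and only the first kind was used. By gene identifier 21698 matched the GRCm38.p6 table, and 0 symbols changed. For 999 genes with several probe sets the one with the highest mean was taken, which gave 19938 genes; 0 of the 10 members had more than 1.

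One mean per vessel was fitted with limma 3.58.1 (R 4.3.3, data.table version 1.17.8) with 8 residual degrees of freedom and default moderation, followed by an F test and 6 pairwise contrasts, each with Benjamini-Hochberg adjustment. The procedure was tested on simulated data. The members and 16 other lists were chosen with earlier results of these data known. Of the listed genes, 4 were not matched. All members were named; of other lists at most 4 genes per comparison, those past the threshold with the largest difference; outside the lists, the 10 genes most correlated with the members' mean and the 5 with Tcf21. Other genes named (Epcam, Cdh1, Upk1a, Upk2, Upk3a, Krt20, Krt23, Calb2, Itln1, Dmkn, Pdpn, Anxa8, Itga4, Gata6, Nr2f2, Tnnt2, Pln, Actc1 and Myh11) fall outside this rule and were chosen after their values were seen, to show lists or tissue markers. Alternatives were median centring, quantile normalization once more, probe set means, dropping the dimmest 25% of genes, the replicate block, array weights, leaving out each array, leaving out 3 of the arrays with transcripts of another tissue, and fitting only a pair. For single members' calls and other lists, alternatives were added after seeing the data. Python 3.11.15 with matplotlib 3.10.9 drew the figures.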

Additional observations from a re-analysis of the deposited data

How the results depend on the processing

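Median centring, quantile normalization once more, averaging probe sets and dropping the dimmest 25% of genes left every count of called members as it was. With array weights 5 members passed the F test, 4 passed against descending aorta (coronary artery higher), 2 against superior mesenteric artery and 1 in descending aorta against superior mesenteric artery. Without replicate 1 of ascending aorta (high in B cell markers), replicate 1 of descending aorta (atrial markers) and replicate 3 of superior mesenteric artery (pancreatic markers), which are not the only arrays that held other tissues, 2 passed in coronary artery against ascending aorta and 2 against superior mesenteric artery. Over all genes 666 and 705 were then called in these comparisons, against 493 and 645 with all arrays. With only the 6 arrays of a pair fitted, 7 passed in coronary artery against descending aorta, 2 against superior mesenteric artery and 1 in descending aorta against superior mesenteric artery. Leaving out each array in turn gave between 1 and 4 members in the F test, 1 and 5 in coronary artery against ascending aorta, 1 and 3 against descending aorta and 0 and 2 against superior mesenteric artery, 0 and 1 in ascending and in descending aorta against superior mesenteric artery, and 0 in ascending against descending aorta. No member's called difference turned sign, and the cause of these shifts was not tested. Same-numbered arrays did not deviate together over all genes (correlations between -0.25 and 0.089 in 18 pairs). Differently numbered arrays were not compared and other tissues moved single arrays, so this cannot decide whether the numbers pair the samples. The labels do not say. With the replicate block 3 members passed the F test and 5 the comparison of coronary artery with ascending aorta, where 908 and 493 of all genes passed. Over all genes, where 942 passed the F test and 493, 627 and 645 the coronary artery comparisons with ascending aorta, descending aorta and superior mesenteric artery, array weights gave 1818, 887, 1095 and 1129. Leaving out 1 array gave between 551 and 1825, 251 and 768, 324 and 1056, and 314 and 1292. Fitting only the pair gave 252, 1261 and 757 in the coronary artery comparisons with ascending aorta, descending aorta and superior mesenteric artery. The 35 genes of ascending aorta against superior mesenteric artery became 443 with array weights, 330 without the 3 arrays, 0 in the pair alone, 23 with the replicate block and between 6 and 628 without 1 array. The 639 of descending aorta against superior mesenteric artery became 1356 with array weights, 936 in the pair alone and between 218 and 1361 without 1 array. The 3 genes of ascending against descending aorta became 0 with the replicate block or in the pair alone. With 3 arrays a vessel, wide intervals limit what can be said of members that missed the threshold.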
